A study of Drosophila melanogaster with 2 samples.

Results

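*kl-2*, *kl-3*, *kl-5*, *ORY*, *Ppr-Y* and *Pp1-Y2* are single-copy protein-coding genes of the *Drosophila* Y chromosome. They were taken as every feature (spot) of the array whose gene symbol in the platform annotation is exactly one of these names. This gave 6 features, 1 for each gene, out of 15729 with a value on both arrays, 67 of which carry a single gene symbol. The genes were picked with their ratios on these arrays already known, so all values below are descriptions and none was tested.

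RNA from sensory organ precursors (SOPs, also called pI cells) was compared with RNA from epithelial cells of the dorsal thorax (notum) of pupae at 16 h after puparium formation. Both cell types were cut by laser from fixed nota of *neur*>mCD8::GFP animals, in which the neuralized Gal4 driver puts membrane GFP into SOPs and their progeny. Each SOP sample pooled around 1000 cells cut with a margin, and epithelium was taken where no GFP was seen. The margin may have held neighbouring tissue. The paper allows that a few SOPs too faint to see were taken with the epithelium, or that the driver leaks weakly there. How far such mixing changed the ratios was not tested. On array 1 SOPs were labelled with Cy3 and epithelial cells with Cy5, and on array 2 the dyes were swapped. The sources used here do not give the sex of the pupae, and the Y chromosome is carried by males only. No source says that the arrays held separate extracts, so the spread between them may be technical. Values are log2 ratios of SOPs over epithelial cells, where 0 means equal signal, 1 a ratio of 2 and -1 a ratio of 0.5. The table does not state this scale and direction, which were inferred. In pooled samples fewer cells of a type and less RNA per cell cannot be told apart.

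The Y chromosome of *Drosophila* is almost entirely heterochromatin and holds few protein-coding genes, most of which are known for expression in the testis. Several of them span very large introns and are transcribed in growing spermatocytes, before sperm tails are assembled. Males without the classical fertility factors, among them *kl-2*, *kl-3* and *kl-5* on the long arm, make no motile sperm. *Ppr-Y* and *Pp1-Y2* belong to the same class of Y-linked genes but are not among these classical factors. The RefSeq gene table of Release 6 places all 6 genes on the Y, which bears out the chromosome in their label but not a role in male fertility. Along the 24 protein-coding Y genes of that table, *kl-3* and *kl-2* are the 5th and 6th and *Pp1-Y2* and *ORY* the 22nd and 23rd, so the genes of each pair are next neighbours.

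None of the 6 genes differed by as much as a ratio of 2 between SOPs and epithelial cells. Their mean ratios lay between 0.862-fold for *kl-3* and 1.03-fold for *Pp1-Y2*, and all 12 single measurements lay between -0.31 and 0.19 on the log2 scale. Over all 15729 features measured on both arrays, 0.985% had a mean ratio of 2 or more and 1.7% of 0.5 or less, against 0 of 6 in either direction here. These shares are 0.759% and 0.474% without the 13 positions of repeated strong ratios described further on, at which none of the 6 genes lay. Of the other 61 features with a single gene symbol, 0 were past either ratio. With shares this small, 0 of 6 does not set the Y-linked genes apart. The range of the 12 measurements is itself set by these genes. Both arrays were within it for 45.5% of all features and for 37.7% of those 61. Spot intensities were not used here, so whether any of these spots was above background in either cell type is unknown. A ratio near 0 therefore does not show that a transcript was present.

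The dynein heavy chains are the motor subunits that drive sliding of microtubules in the sperm tail. *kl-3*, which encodes one of the outer arm, was measured at -0.31 on array 1 and at -0.12 on array 2, both on the log2 scale. The mean of these was -0.215 ± 0.13 (SD, n = 2 arrays), the lowest of the 6 genes, and both arrays were on the side of the epithelial cells. *kl-5*, which encodes another heavy chain of the outer arm, had -0.18 on array 1 and -0.02 on array 2, a mean of -0.1 ± 0.11 (SD, n = 2). *kl-2*, which encodes a heavy chain of the inner arm, had 0 on array 1 and -0.09 on array 2, a mean of -0.045 ± 0.06 (SD, n = 2). *kl-3* and *kl-5* were below 0 on both arrays, as were 29.3% of all features, and *kl-2* was exactly 0 on array 1. By their mean ratios *kl-3*, *kl-5* and *kl-2* stood at the 16.4th, 31.9th and 42.1st percentiles of all features, so even the lowest was inside the bulk of the array.

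*ORY*, named for a similarity to occludin and encoding a protein with coiled coils, had -0.23 on array 1 and -0.07 on array 2. These average to -0.15 ± 0.11 (SD, n = 2), at the 24.1st percentile of all features. With *kl-3* and *kl-5* it was one of 3 genes below 0 on both arrays. Over all features 29.3% were below 0 on both arrays and 28.5% above 0 on both, the latter against 0 of 6 here. Over the other 61 features with a single gene symbol these shares were 27.9% and 36.1%.

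Both phosphatase genes changed sign between the arrays. *Ppr-Y*, annotated as a regulator of a protein phosphatase, had -0.13 on array 1 and 0.15 on array 2, a mean of 0.01 ± 0.20 (SD, n = 2). *Pp1-Y2*, which encodes a catalytic subunit of the protein phosphatase 1 type, had -0.11 on array 1 and 0.19 on array 2, a mean of 0.04 ± 0.21 (SD, n = 2). They had the widest spread between the arrays of the 6 genes. The SD was larger than the size of the mean for these 2 and for *kl-2* and *kl-5*, 4 of 6 in all, and smaller for *kl-3* and *ORY*. It was larger for 50.9% of all features and for 37.7% of the other 61 with a single gene symbol. Opposite signs on the arrays were found for 39.2% of all features and for 34.4% of those 61.

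**Figure D1:**
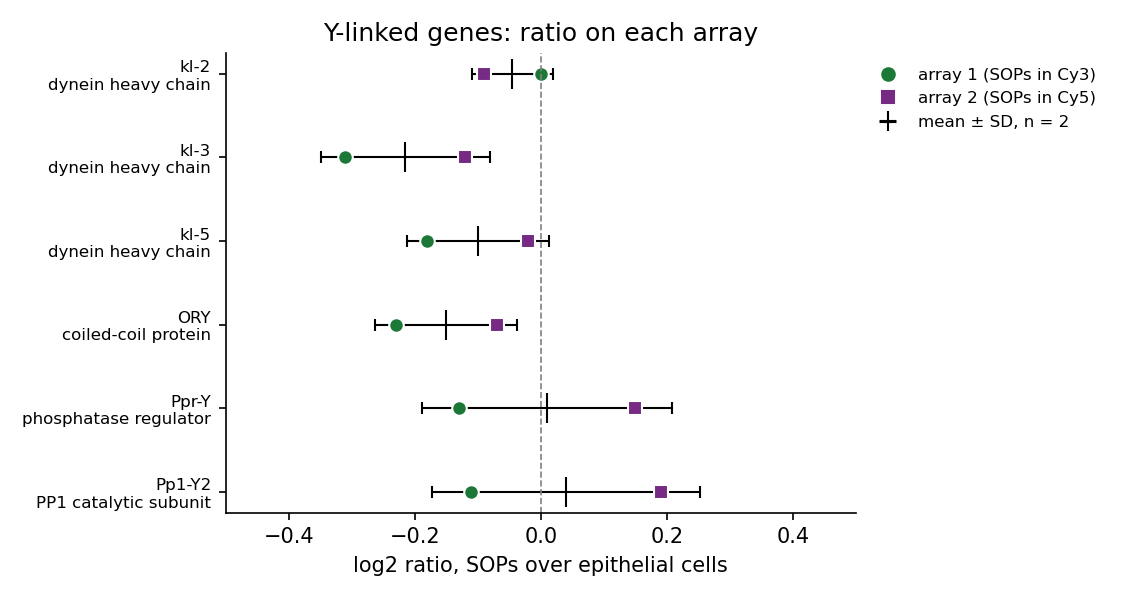
Log2 ratio of SOPs over epithelial cells (horizontal axis) for each of the 6 Y-linked genes, with circles for array 1, squares for array 2, and a bar and whiskers for the mean ± SD of both. No circle lies above 0, and the squares of *Ppr-Y* and *Pp1-Y2* lie at 0.15 and 0.19.

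From lowest to highest mean the order was *kl-3*, *ORY*, *kl-5*, *kl-2*, *Ppr-Y* and *Pp1-Y2*. Taken over both arrays, the measurements of each gene overlapped those of its neighbour in all 5 steps of this order. The steps were 0.03 to 0.065 on the log2 scale. Within each array, *kl-3* was below *ORY*, *ORY* below *kl-5* and *Ppr-Y* below *Pp1-Y2*. The other steps did not hold on both arrays. How often the order of other features repeats between the arrays was not counted. Of all 15 pairs of genes, the measurements of 13 overlapped. In the other 2, *kl-3* was below *kl-2* and below *Pp1-Y2* on every measurement. The higher value of *kl-3* was -0.12. The lower value was -0.09 for *kl-2* and -0.11 for *Pp1-Y2*, so both of these pairs were nearly touching. How often pairs of other features do not overlap was not counted, so 2 of 15 cannot be weighed. The SDs between the arrays ran from 0.0636 for *kl-2* to 0.212 for *Pp1-Y2*. Their median was 0.124, against 0.148 over all features.

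The sign of the ratio depended in part on the array. On array 1, 5 of the 6 genes were below 0, on array 2, 4 were, and the medians of the 6 were -0.155 and -0.045. Over all features 50.5% were below 0 on array 1 and 48.8% on array 2. For the other 61 features with a single gene symbol these shares were 41.0% and 50.8%. 5 of the 6 genes, all but *kl-2*, were lower on array 1 than on array 2, against 51.3% of all features. Since the dyes were swapped, the difference between the arrays, divided by 2, holds any effect that follows the dye rather than the cell type. This divided difference (array 1 minus array 2) was -0.15 for *Pp1-Y2*, -0.14 for *Ppr-Y*, -0.095 for *kl-3*, -0.08 for *ORY* and *kl-5* and 0.045 for *kl-2*. It was larger in size than the mean ratio for *Ppr-Y* and *Pp1-Y2*, the genes of opposite signs. The part of the dye in these ratios was not tested.

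**Figure D2:**
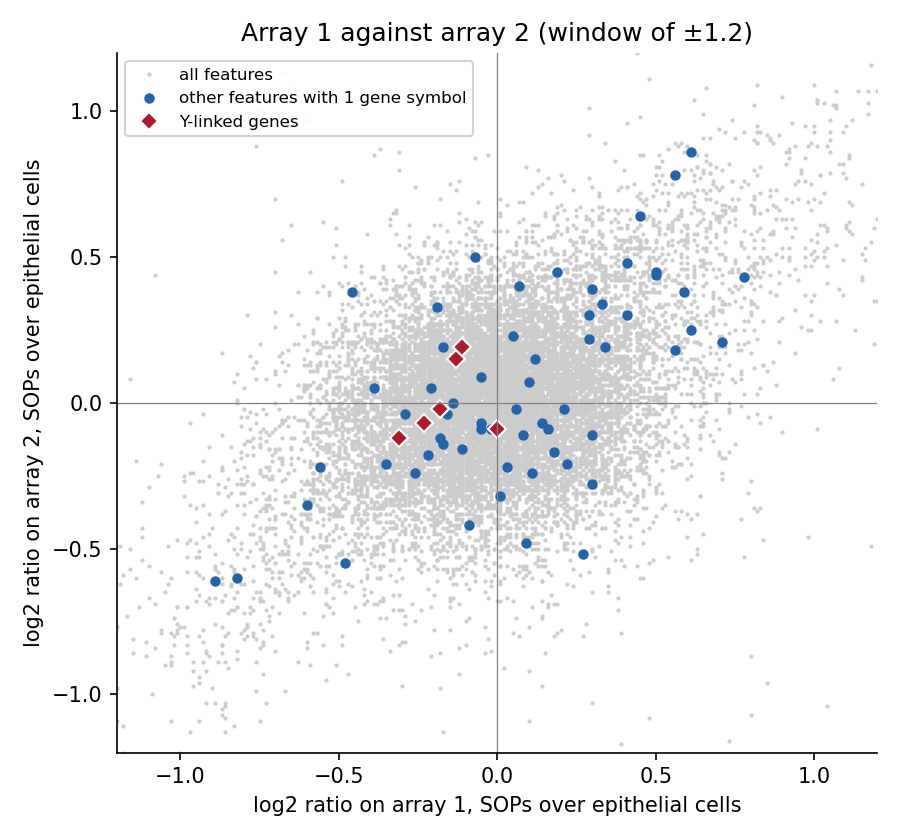
Log2 ratio on array 1 (horizontal axis) against array 2 (vertical axis) for all features (grey), other features with a single gene symbol (blue circles) and the 6 Y-linked genes (red diamonds), in a window of ±1.2 that holds all 6 and leaves out 460 features. The Y-linked genes lie at or left of 0 on array 1, within the dense centre of the cloud.

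The median of the mean ratios of the 6 genes was -0.07, against -0.005 over all features and 0.01 over the other 61 features with a single gene symbol. Those 61 features ran from -0.75 to 0.735 and the 6 genes from -0.215 to 0.04, though a range grows with the number of features. Among them 27 lay within the range of the Y-linked genes, 26 above and 8 below. Just above the range was *su(f)*, whose protein acts in 3′ end processing of mRNA, with -0.19 on array 1 and 0.33 on array 2, a mean of 0.07. Just below was *Mlc1*, a myosin light chain gene, with -0.26 and -0.24, a mean of -0.25.

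The pair of ratios most like the median of the 6 genes (-0.155 on array 1, -0.045 on array 2) was that of *Mal-B2*, a maltase gene, with -0.16 and -0.04, at a Euclidean distance of 0.007 on the log2 scale. Next came *lt* with -0.14 and 0 (distance 0.047), which encodes a protein of vesicle trafficking to the lysosome, and *MED21*, a subunit of the Mediator complex, with -0.18 and -0.12 (distance 0.079). This likeness rests on 2 arrays and none of these genes is on the Y chromosome. Many features have ratios near 0, so close neighbours are common there.

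By chromosome, the median of the mean ratios was -0.1 for the 9 other named features on 2L and -0.025 for the 8 on X. It was 0.023 for the 14 on 3L, 0.095 for the 20 on 2R and 0.145 for the 10 on 3R. The median of the Y-linked genes lay between those of 2L and X. The range of each of these chromosomes or arms, 0.55 on X and 1.02 to 1.185 on the others, was wider than the 0.255 of the Y-linked genes. Each of them holds more features, though, and a range grows with their number. The lower and upper quartiles were -0.091 and 0.025 on X, against -0.138 and -0.004 for the Y-linked genes. By quartiles X was therefore not the wider of both.

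**Figure D3:**
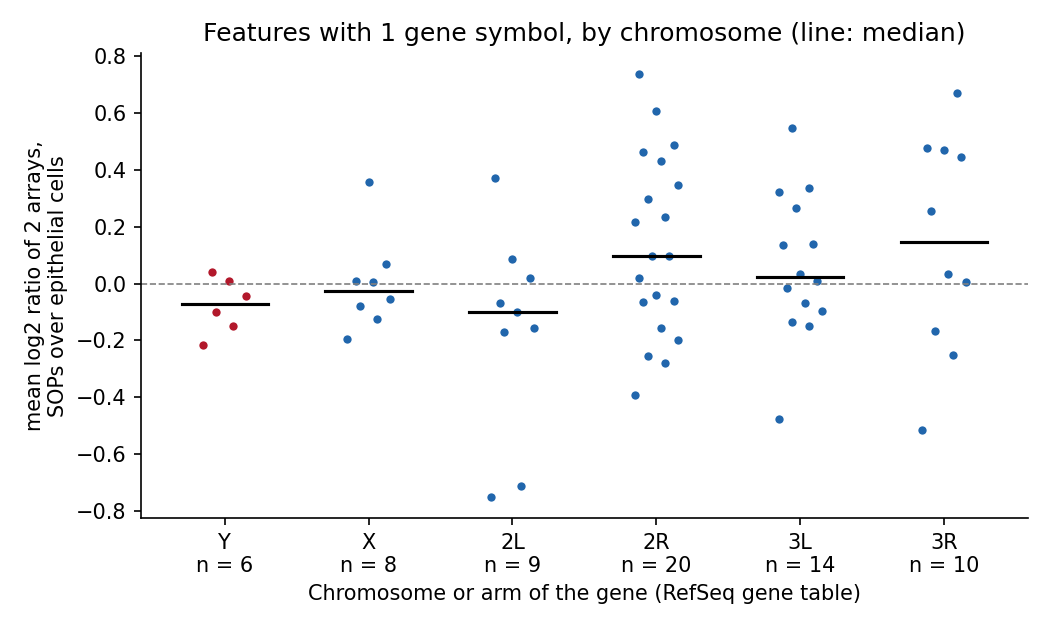
Mean log2 ratio of both arrays (vertical axis) for each feature with a single gene symbol, by the chromosome or arm of its gene, with the Y-linked genes in red and a line at each median. The 6 Y-linked points lie between -0.215 and 0.04, within the range of every arm except X, whose lowest point is at -0.195.

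Each of the 6 genes was measured by 1 feature, so no gene had a second feature to set beside it. Among the other named genes 4 had 2 features. The means of both differed by 0.055 for *Gyg*, 0.065 for *eIF4B*, 0.25 for *CG17684* and 0.64 for *Dbp80*. The whole range of the Y-linked genes, 0.255, is close to the difference for *CG17684* and below that for *Dbp80*.

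The features were also compared with their surroundings in the table, which repeats in 24 blocks of 656 features, a length inferred from the ratios. 4 of the 6 genes lay at the same position of a block, position 359: *Ppr-Y* in block 15, *kl-5* in block 17, *ORY* in block 21 and *Pp1-Y2* in block 23. No other position held as many of the 67 named features. *kl-2* and *kl-3* lay at positions 273 and 281. At 13 positions, none of them a position of the 6 genes, the median over the blocks exceeded 0.5 in size on an array. The 20 other features at position 359, none of them named, had medians of -0.01 on both arrays, and their means ran from -1.005 to 0.465. Of these 20, 12 lay outside the range of the Y-linked genes. The 100 features listed nearest to each gene had medians between -0.045 and 0.05, and with these subtracted the 6 mean ratios ran from -0.205 to 0.003.

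**Figure D4:**
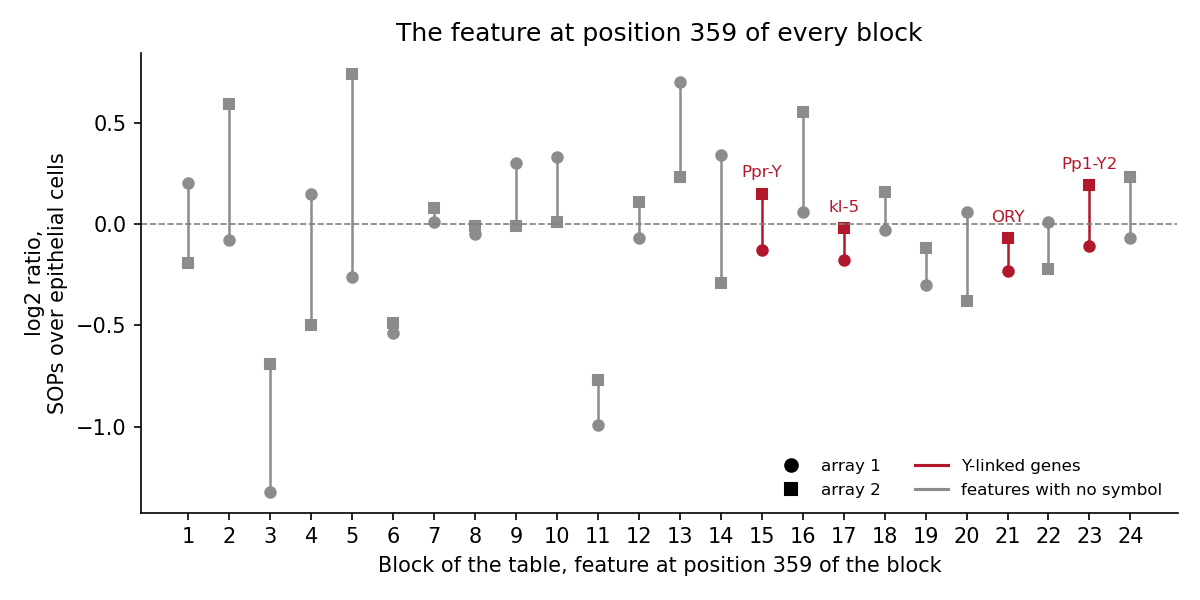
Log2 ratio (vertical axis) of the feature at position 359 of each of the 24 blocks (horizontal axis), with circles for array 1, squares for array 2, the 4 Y-linked genes in red and features with no symbol in grey. The Y-linked genes stay between -0.23 and 0.19, and the grey features reach 0.74 and -1.32.

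Other genes of the same kinds could not be set beside these. Of the lists of 10 other Y-linked genes, 12 other dynein heavy chains, 10 genes of the protein phosphatase 1 family and its relatives, 24 testis genes and 8 markers of the male germ line, 0 genes have a named feature. The same holds for 13 SOP markers, so the labelled cell types could not be checked here with them. The paper made checks of its own. By quantitative PCR it reports more RNA of the SOP marker *sens* and of *gfp* in SOPs than in epithelial cells. For *ac*, another of the 13 SOP markers, it reports no significant difference by the same method and a similar level on the arrays. The paper also reports that *gfp* RNA was still found in the epithelial sample. Its list of SOP-overexpressed genes from the arrays also holds *sens*. The 1 named marker of epithelium, the junction gene *p120ctn*, had 0.01 on array 1 and -0.32 on array 2. Of the 9 muscle markers listed, 1 has a named feature, the troponin T gene *up*, with 0.27 and -0.52. Outside that list, and picked after their values were seen, the muscle genes *Mlc1* (given above) and *Prm*, which encodes paramyosin, are also named, the latter with 0.16 and -0.09. So is *Scp1*, called after a sarcoplasmic calcium-binding protein, which had the signs opposite to those of *up* and *Prm*, with -0.46 and 0.38.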

How the data were processed

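The authors hybridized amplified RNA to 2 two-colour oligonucleotide arrays with swapped dyes. The authors left the background uncorrected and normalized within each array by lowess in limma, whose version is not given in the sources used here. In the deposited table each array has a column of log2 ratios, rounded to 2 decimals. Scale and direction are not stated in it. The columns correlate positively in spite of the swapped dyes (Pearson's r = 0.54 over 15729 features), and of 127 ratios in the published list of SOP-overexpressed genes 123 are held by a feature as the arithmetic mean of both arrays, against 50 to 79 with the sign of one or both arrays turned. Both columns were therefore read as SOPs over epithelial cells. Centring beyond lowess is unknown. The medians were -0.01 and 0. Signal over background is unknown. Precision is limited by there being 2 arrays.

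Features that lacked a ratio on an array were left out (8 on array 1, 7 on array 2), which kept 15729. Each gene's mean and SD are those of 2 log2 ratios. Gene symbols came from the platform annotation. Of the 67 features with 1 symbol, 62 matched the RefSeq gene table (Release 6) by gene ID, 3 by symbol (*kl-3* and *kl-5* among them) and 2 by synonym. The 6 genes and all lists were chosen with earlier results of these data known, so no test was run. Named genes were the 6, the 3 nearest by their pair of ratios and the next above and below their range. *p120ctn* and *up* came from the marker lists, and genes with 2 features were named after their values were seen. Python 3.11.15, pandas 2.3.3, numpy 2.4.6 and scipy 1.17.1 were used, and the computations were tested on simulated data. Alternatives were each array alone, the arithmetic mean, centred, scaled or locally centred arrays, other thresholds and other backgrounds. Centring on the same position of the blocks was added after seeing the data.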

Additional observations from a re-analysis of the deposited data

How the results depend on the processing

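In the 30 combinations of gene and alternative that kept both arrays, the log2 ratio moved by less than the SD between the arrays and lay between -0.275 and 0.075. *Ppr-Y* turned from 0.01 to -0.005 when centred on the 100 nearest features. With 1 array left out the ratios ran from -0.31 to 0.19, and those of *Ppr-Y* and *Pp1-Y2* were below 0 on array 1 alone. With 2 arrays, leaving out 1 cannot move a mean past its SD, so this says nothing of stability. The median over the 6 genes was -0.07, and -0.155 to -0.045 with 1 array left out. It moved by more than the SD of the array medians on array 1 alone (-0.155, without array 2). The counts of genes past a ratio of 2 or 0.5 stayed at 0 under the alternatives run for them, thresholds of 1.5 and 3 included (centring on the same position of the blocks was not run for counts), and 0 genes were above 0 on both arrays with centred, scaled or locally centred arrays. The genes below 0 on both were 3 with centred or scaled arrays and 4 with arrays centred on the 100 nearest features. Each log2 ratio already compares both cell types within the same array, so the cell types are paired in it. No further pairing was possible, since the labels give a single group. With 2 arrays and no spot intensities, the depth of these values cannot be given.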
